A study of Mus musculus with 6 samples.

Results

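The CD28 family and the inhibitory checkpoint receptors are surface proteins that tune the signal of the T cell receptor, and their transcripts were followed here in mouse T cells cultured without glutamine against the same culture with it. The members were the 10 genes Cd28, Icos, Ctla4, Pdcd1, Lag3, Havcr2, Tigit, Btla, Cd200 and Cd160. The members, and the gene lists used below, were chosen by name, with earlier results of these data known. Each member was named as the single gene of 1 array row, so 10 of the 30702 genes tested are described and no member had a further row. The platform annotation lists a second gene identifier for the Cd200 row, beside that of Cd200 itself.

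Both groups held naive CD4+ T cells of mice, sorted as CD4+CD25-CD62L+CD44- cells, activated with antibodies to CD3 and CD28 and kept for 3 days under conditions that drive TH17 cells, the helper cells that secrete IL-17. All 6 cultures received IMDM with 10% FBS, 1.25 ng/ml of TGFb, IL-23 and IL-6 (each 20 ng/ml), and neutralising antibodies to IFNg, IL-4 and IL-12 (10 ug/ml). As labelled, the groups differed in the medium alone: 3 control cultures had glutamine, and 3 had none. They are labelled as biological replicates, without stating whether they came from separate mice, and the sources used here do not give the strain, sex or age of the mice. Total RNA was hybridised to Affymetrix arrays, which do not count molecules, so that the number of arrays limits the precision.

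CD28 binds CD80 and CD86 on antigen-presenting cells and adds the costimulatory signal that a naive T cell needs, and CTLA-4 takes the same ligands with higher affinity and restrains the response. ICOS, the other costimulatory receptor of the family, appears on activated cells and binds ICOSL, while PD-1 (Pdcd1) and BTLA recruit phosphatases through tyrosine motifs in their tails. LAG-3, TIM-3 (Havcr2), TIGIT and CD160 are inhibitory or modulatory receptors outside the family, which bind MHC class II, galectin-9, the poliovirus receptor PVR and HVEM among other ligands in that order. CD200 is itself a ligand, whose receptor CD200R inhibits myeloid cells.

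Values are log2 levels as deposited, and a change is the difference of the group means on that scale, positive where the level was higher without glutamine. The medians of the arrays lay between 4.18 and 4.21 with glutamine and between 4.33 and 4.38 without it, and levels beyond 16, the most that a 16-bit scanner can give in log2, occurred on every array, so changes are not turned into folds. A gene passed when its adjusted p (limma, Benjamini-Hochberg over all 30702 genes) was under 0.05. Levels of different genes come from different probes and are not ranked against each other. The 6 measured T cell markers lay above the array medians on all arrays, with Cd3e between 16.83 and 16.98, Cd4 between 16.31 and 16.66 and Cd247 between 8.61 and 8.84. Of these markers 1, Cd3d, rose, a call lost without with glutamine replicate 2 or replicate 1 or 2 of the cultures lacking glutamine (adjusted p = 0.0579, 0.056 and 0.0633). After quantile normalization Cd3e (-0.42, limma, adjusted p = 0.0328) and Cd4 (-0.52, 0.00637) were lower, but neither passed after centring on array medians (0.183 and 0.0527). Il17a, which encodes IL-17A, fell by 6.81 (limma, adjusted p = 8.84e-05). Among 5 measured TH17 markers 4 fell, namely Il17a, Il23r (-4.828), Il17f (-3.504) and Ccr6 (-1.806). Rora changed by -0.058 and did not pass (limma, adjusted p = 0.682). Of the CD8 T cell markers, Cd8b1 fell from 8.10 ± 0.25 to 7.39 ± 0.09 (SD, n = 3), a change of -0.71 (limma, adjusted p = 0.0117), and Cd8a lay under the array median on all arrays, as did 2 of 4 B cell, 6 of 9 myeloid, 2 of 3 NK cell and 2 of 3 stromal markers. The mean level of the B cell list was 3.91 to 3.95 with and 3.92 to 4.06 without glutamine, and that of the myeloid list 4.45 to 4.51 and 4.46 to 4.47, but the myeloid list held Lyz2, which fell by 1.66, and Cd68, which rose by 1.58. The NK cell list had a mean of 4.91 to 5.15 with and 4.58 to 4.68 without glutamine, where Klrd1 fell by 1.42, and the part of these markers in the results below was not tested. In whole cultures, fewer cells that make a transcript and less of it per cell cannot be told apart.

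Where the members that passed have an entry in the RefSeq promoter table of GRCm38.p6, the 250 bases before the gene's start are shown. The table matched 7 of the 10 members, and 4 of the 6 that passed, with no entry for Icos or Lag3. Capitals mark GGAAA, the core sequence that NFAT factors of activated T cells bind, on either strand, so that it reads TTTCC where it lies on the other strand.
Pdcd1 chr1:94052554-94052803 strand -: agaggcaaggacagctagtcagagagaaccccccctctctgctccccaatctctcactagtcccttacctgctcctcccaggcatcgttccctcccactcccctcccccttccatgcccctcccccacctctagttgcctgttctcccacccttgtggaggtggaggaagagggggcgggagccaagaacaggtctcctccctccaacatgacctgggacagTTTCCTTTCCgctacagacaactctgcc
Ctla4 chr1:60908775-60909024 strand +: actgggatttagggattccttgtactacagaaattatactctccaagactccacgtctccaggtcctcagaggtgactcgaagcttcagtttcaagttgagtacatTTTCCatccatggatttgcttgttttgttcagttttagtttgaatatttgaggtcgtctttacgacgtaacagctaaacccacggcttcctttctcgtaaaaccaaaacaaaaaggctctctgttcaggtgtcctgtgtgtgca
Tigit chr16:43664185-43664434 strand -: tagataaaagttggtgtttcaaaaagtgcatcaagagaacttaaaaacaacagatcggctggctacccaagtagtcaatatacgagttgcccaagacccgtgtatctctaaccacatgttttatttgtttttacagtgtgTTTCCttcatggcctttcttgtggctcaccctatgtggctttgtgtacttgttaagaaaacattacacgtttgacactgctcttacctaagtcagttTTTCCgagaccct
Cd200 chr16:45409054-45409303 strand -: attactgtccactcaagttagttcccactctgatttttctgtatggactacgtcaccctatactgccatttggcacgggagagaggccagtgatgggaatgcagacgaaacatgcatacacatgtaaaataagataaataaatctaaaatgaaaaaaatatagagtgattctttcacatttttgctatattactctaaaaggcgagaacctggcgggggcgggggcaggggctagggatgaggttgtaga
The Pdcd1 window held 2 such cores, side by side close to the start of the gene, the Tigit window 2, the Ctla4 window 1 and the Cd200 window 0. At least 1 core stood in 55.6% of the 32841 promoter windows of this length. The AP-1 sequence TGANTCA, searched on both strands, was in none of these 4 windows (0 matches) and in 6.75% of all. GGGCGG, searched in the same way, was found in the windows of Pdcd1 and Cd200 (1 match each) and in 32.7% of all. A match is a run of letters and not a bound site. Pdcd1 rose, and Ctla4, Tigit and Cd200 fell, as given below, and a link of these matches to the direction was not tested.

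The costimulatory receptors of the family parted: Icos fell by more than any other member, and Cd28 hardly moved. Icos read 14.99, 15.55 and 15.14 log2 on the arrays with glutamine and 13.19, 13.56 and 13.57 on those without it. The groups lay 1.42 apart at their nearest values, against a range of 0.57 within the cultures with glutamine and 0.38 within those without. The mean fell from 15.22 ± 0.29 to 13.44 ± 0.22 (SD, n = 3), a change of -1.79 with a standard error of 0.17 and a 95% interval of -2.20 to -1.37 (limma, adjusted p = 0.00116). The fall of Icos was number 222 of all genes in order of size. The call of Icos held in each of 15 alternative analyses, with changes between -1.95 and -1.62. Among these, the mean over a gene's rows left the change as it was, since Icos has a single row.

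Cd28, whose product receives one of the stimulating antibodies, read 13.00, 13.03 and 13.02 with glutamine and 13.18, 13.18 and 13.10 without it. These were the tightest groups among the members, with SDs of 0.016 and 0.048, and they lay 0.073 apart. The change of 0.14 (95% interval -0.01 to 0.29) did not pass (limma, adjusted p = 0.159), and it was -0.01 after each array was centred on its median. Over all genes the median change was 0.06 as deposited, so Cd28 moved little against the other genes on the arrays.

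Among the inhibitory members of the CD28 family, Pdcd1 rose, Ctla4 fell and Btla did not pass. Pdcd1 stood at 13.14, 12.62 and 12.76 with glutamine and at 14.23, 14.05 and 13.64 without it. The lowest array without glutamine was 0.50 above the highest array with it, and each group spread over a range of 0.52 or 0.59. The mean rose from 12.84 ± 0.27 to 13.97 ± 0.31 (SD, n = 3), by 1.13 with a standard error of 0.19 and a 95% interval of 0.68 to 1.59 (limma, adjusted p = 0.00813). The rise of Pdcd1 was number 261 of all genes in order of size, and leaving out any of the arrays gave rises of 1.004 to 1.301 with adjusted p of 0.00941 to 0.0382.

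Ctla4 moved the other way, from 14.08, 14.53 and 13.89 with glutamine to 13.64, 13.45 and 13.53 without it. The 3 arrays without glutamine were close together and all below the lowest array with it, by 0.25. The mean fell from 14.17 ± 0.33 to 13.54 ± 0.10 (SD, n = 3), a change of -0.62 with a 95% interval of -1.02 to -0.23 (limma, adjusted p = 0.037). That call was lost without with glutamine replicate 1 (adjusted p = 0.0693) and without replicates 1, 2 or 3 of the cultures lacking glutamine (0.0706, 0.117 and 0.0981), while the change stayed between -0.76 and -0.44. Ctla4 therefore sat near the threshold.

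Btla, which binds HVEM, read 14.69, 14.57 and 14.88 with glutamine and 14.65, 14.43 and 14.15 without it. The groups overlapped: 1 culture without glutamine lay above the lowest culture with it. The change was -0.30 with a 95% interval of -0.65 to 0.04 (limma, adjusted p = 0.18).

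**Figure D1:**
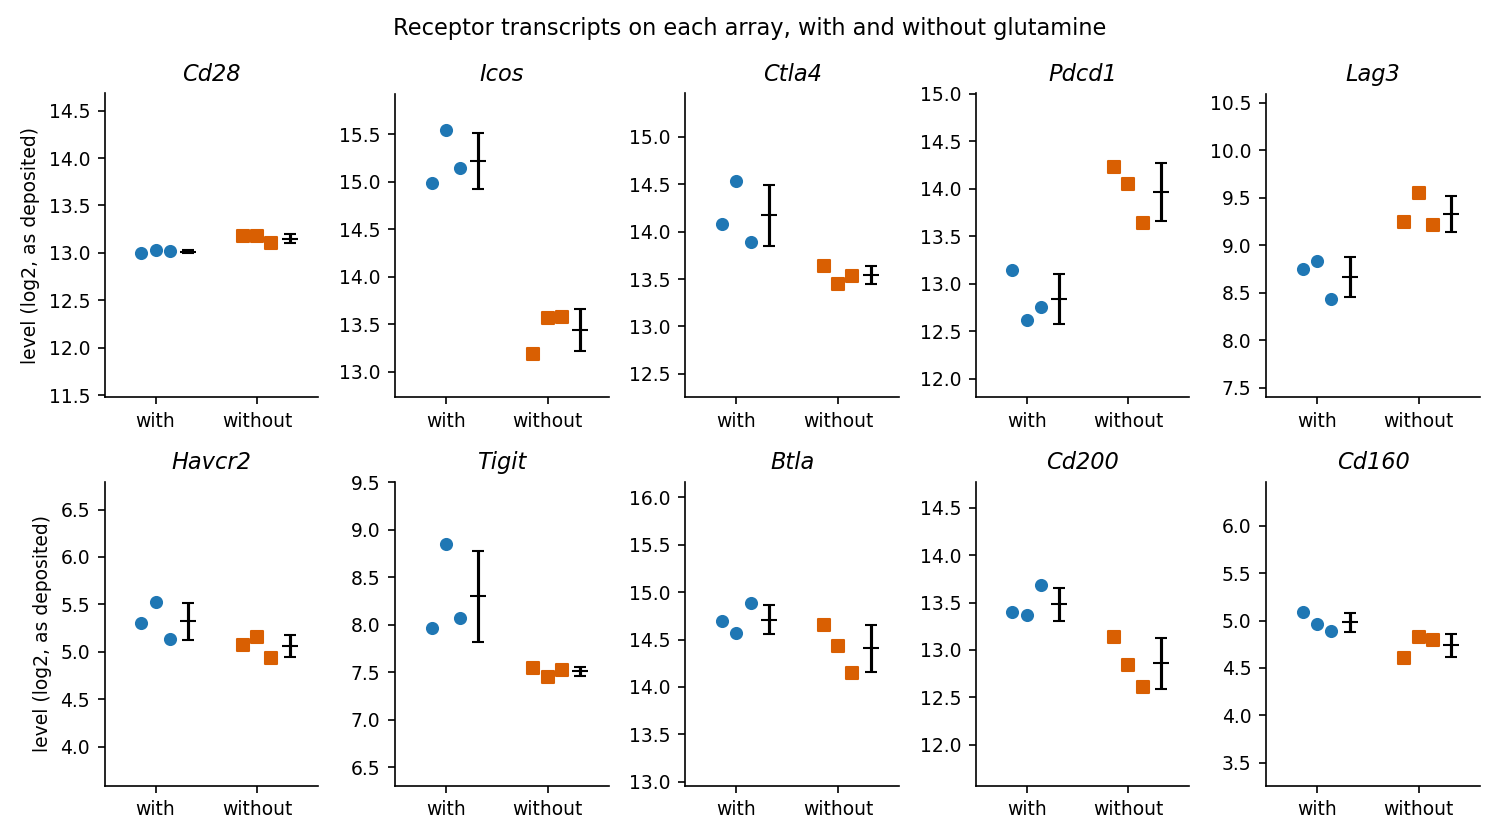
Level of each of the 10 receptor transcripts (y axis, log2 as deposited) on the 3 arrays with glutamine (circles) and the 3 without (squares), with the mean and SD of each group beside the points; every panel spans 3.2 log2, and levels are not comparable between panels. The groups of Icos and Pdcd1 stand farthest apart, at means of 15.22 and 13.44 and of 12.84 and 13.97, while those of Btla and Havcr2 overlap.

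Of the receptors outside the family, Lag3 rose and Tigit fell. Lag3, whose product binds MHC class II, read 8.75, 8.83 and 8.43 with glutamine and 9.25, 9.55 and 9.21 without it. No array of either group reached into the other, with 0.37 between them. The mean rose from 8.67 ± 0.21 to 9.33 ± 0.185 (SD, n = 3), by 0.66 with a 95% interval of 0.33 to 0.99 (limma, adjusted p = 0.0178). Without replicate 2 of the cultures lacking glutamine, the array where Lag3 was highest, the rise of 0.56 missed the threshold (adjusted p = 0.0561).

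Tigit, which competes with the activating receptor CD226 for PVR, read 7.97, 8.85 and 8.07 with glutamine and 7.55, 7.45 and 7.52 without it. With glutamine replicate 2 stood well above the other arrays of its group, whereas the cultures without glutamine lay within 0.10 of each other. The change of the means, from 8.30 ± 0.48 to 7.51 ± 0.05 (SD, n = 3), was -0.79 with a 95% interval of -1.33 to -0.25 (limma, adjusted p = 0.0481). Without that high array the change was smaller, -0.51, and still passed (adjusted p = 0.0166). The call was lost without with glutamine replicate 3 (adjusted p = 0.0515) and without replicates 1, 2 or 3 of the cultures lacking glutamine (0.105, 0.136 and 0.113).

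Havcr2 and Cd160 read from 4.61 to 5.53, not far above the array medians, and neither passed. Havcr2 read 5.30, 5.53 and 5.14 with glutamine and 5.07, 5.16 and 4.94 without it, and its groups overlapped. The change was -0.27 with a 95% interval of -0.55 to 0.01 (limma, adjusted p = 0.154). Cd160, which shares the ligand HVEM with BTLA, read 5.09, 4.96 and 4.89 with glutamine and 4.61, 4.83 and 4.79 without it. Its groups stood 0.055 apart, and the change was -0.23 with a 95% interval of -0.45 to -0.02 (limma, adjusted p = 0.119). Scaling decided both calls: Havcr2 passed after quantile normalization (-0.45, adjusted p = 0.0383) and after centring (-0.42, 0.0468), and so did Cd160 (-0.42, 0.017, and -0.39, 0.0201).

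Cd200, the ligand of the set, fell. It read 13.40, 13.37 and 13.68 with glutamine and 13.14, 12.84 and 12.61 without it. The groups did not overlap, but only 0.22 lay between them. The mean went from 13.48 ± 0.17 to 12.86 ± 0.27 (SD, n = 3), a change of -0.62 with a 95% interval of -0.99 to -0.25 (limma, adjusted p = 0.0318). The call was lost without with glutamine replicate 1, 2 or 3 (adjusted p = 0.0629, 0.063 and 0.0724) and without replicate 2 or 3 of the cultures lacking glutamine (0.0981 and 0.0781).

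In all, 6 of the 10 members passed: 2 rose (Pdcd1 and Lag3), 4 fell (Icos, Tigit, Ctla4 and Cd200) and 4 did not pass. Over all genes tested 22.3% passed, 9.3% higher and 13.0% lower without glutamine, and among the 15351 genes above the median level, where all 10 members lie, 38.7% passed. The groups did not overlap in 8 of the 10 members, against 43.8% of all genes. The median change of the members was -0.28, against 0.06 over all genes. After quantile normalization 2 members rose and 6 fell, where 21.8% of all genes passed (4.73% higher and 17.1% lower). After centring it was again 2 and 6, where 23.9% passed (3.96% and 20.0%). The members that rose were Pdcd1 and Lag3 under each of these scalings. The count was 2 without replicate 2 of the cultures lacking glutamine, where Icos and Pdcd1 passed, and 3 without their replicate 3, where Lag3 passed as well. Over all genes, 4060 passed without that replicate 2, against 6843 with all arrays. It was 1, Icos, with an unmoderated statistic, which estimates each gene's spread from its own 6 arrays.

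**Figure D2:**
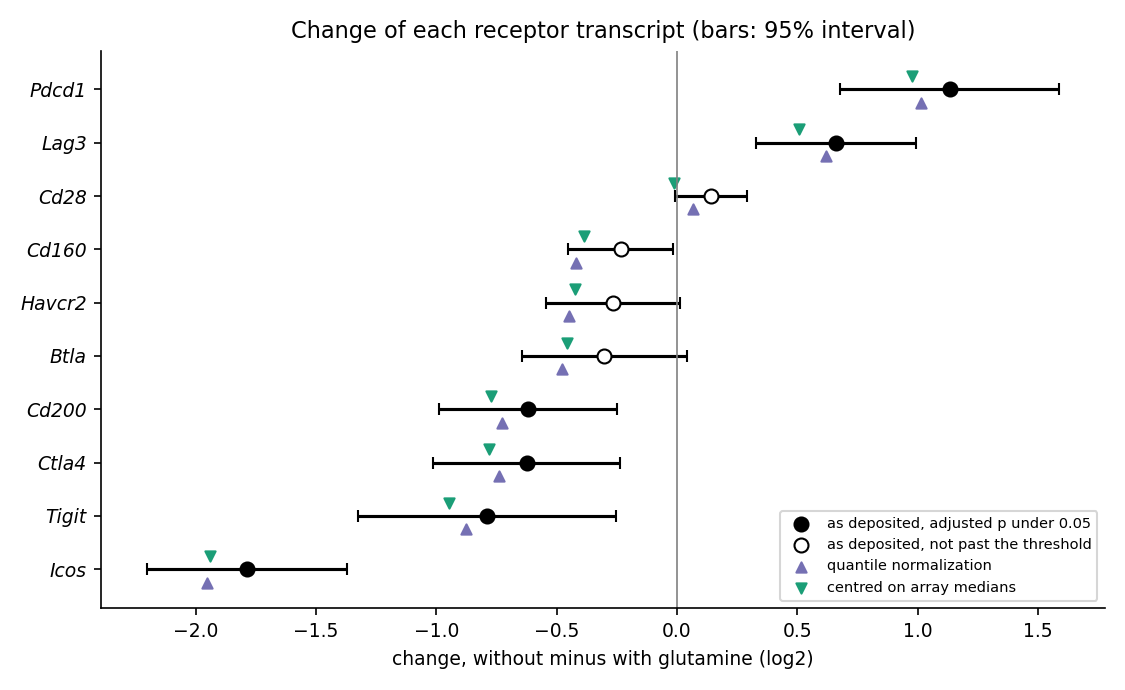
Change of each receptor transcript (x axis, log2, without minus with glutamine) with its 95% interval; filled circles passed at adjusted p under 0.05 as deposited, open circles did not, and triangles give the change after quantile normalization or after centring on array medians. Icos lies farthest to the left at -1.79 and Pdcd1 farthest to the right at 1.13, and both scalings move every member to the left.

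Differences taken within an array do not move when an array is shifted as a whole, so 5 pairs of receptors were also set against each other on each array. The level of such a difference depends on the probes, and only its change between the groups is read. With 3 arrays against 3 the two-sided exact permutation test cannot go below 0.1, and 4 of the 5 pairs reached that value (0.125 after adjustment over the 5 pairs). Ctla4 minus Cd28, the receptors that share CD80 and CD86, was 1.08, 1.5 and 0.88 with glutamine and 0.46, 0.27 and 0.43 without it, a change of -0.77. Icos minus Cd28 went from 2.21 ± 0.28 to 0.28 ± 0.25 (SD, n = 3), a change of -1.93. In both pairs the 3 arrays without glutamine lay below the 3 with it.

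Pdcd1 minus Icos, an inhibitory against a costimulatory member, moved the most. This pair joins the largest rise to the largest fall among the members, so no other pair of members could move more. The difference was -1.85, -2.93 and -2.37 with glutamine and 1.05, 0.49 and 0.07 without it, a change of 2.92 over groups that do not overlap. Tigit minus Cd226 rose from -2.54 ± 0.39 to -1.09 ± 0.17 (SD, n = 3), by 1.45, as Cd226 fell by 2.24 and Tigit by 0.79. Btla minus Cd160, the receptors of HVEM, was 9.73 ± 0.22 with and 9.66 ± 0.34 without glutamine (exact permutation p = 0.8). Its groups overlapped, and its small change of -0.07 turned to 0.06 without with glutamine replicate 3 and to 0.08 without replicate 3 of the cultures lacking glutamine.

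**Figure D3:**
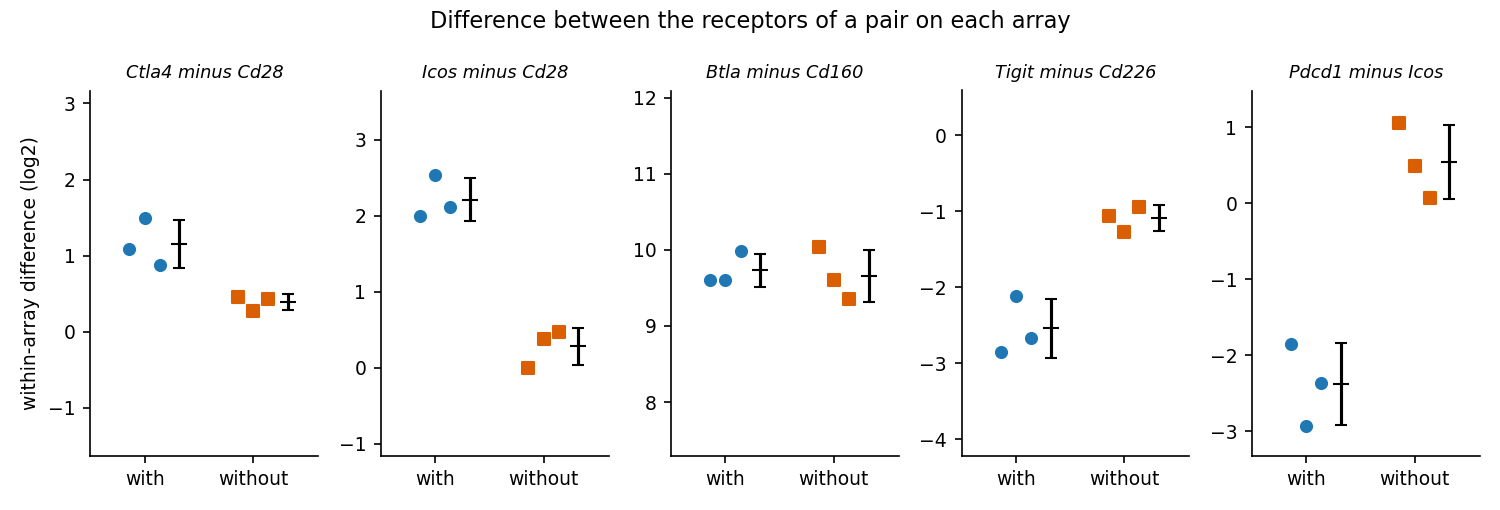
Difference between the receptors of a pair on the same array (y axis, log2; every panel spans 4.8 log2) for the 3 arrays with glutamine (circles) and the 3 without (squares), with the mean and SD of each group. The groups separate in every pair but Btla minus Cd160, and Pdcd1 minus Icos moves the farthest, from a mean of -2.38 to 0.54.

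The ligands and related receptors of these members moved in both directions. Of 18 measured genes, 4 rose, 5 fell and 9 did not pass (2 and 6 after quantile normalization, 2 and 8 after centring). So 9 of the 18 passed, against 22.3% of all genes and 38.7% of those above the median level. All but Icosl, Nectin1, Nectin2, Nectin3 and Fgl1 lie above that level. Their median change as a list was -0.04, against 0.06 over all genes. Cd226, the activating receptor that shares PVR with TIGIT, fell from 10.84 ± 0.11 to 8.60 ± 0.13 (SD, n = 3), by 2.24 (limma, adjusted p = 8.84e-05). Tnfsf14, which encodes LIGHT, another ligand of HVEM, fell by 0.985. Tnfrsf14, which encodes HVEM itself, rose from 9.81 ± 0.10 to 10.62 ± 0.06, by 0.81, and Pdcd1lg2, the gene of the PD-1 ligand PD-L2, rose by 0.93. The other PD-1 ligand gene, Cd274, chosen after its values were seen, read 12.38, 12.27 and 12.57 with and 13.17, 12.96 and 12.36 without glutamine, groups that overlap (change 0.42, adjusted p = 0.19), and it passed without replicate 3 of the cultures lacking glutamine (0.66, adjusted p = 0.0251). The other 5 genes of the list that passed changed by 0.46 to 0.70 in size. In 4 of the 9 that passed the call was lost when at least 1 array was left out, and 5 genes of the list passed without replicate 2 of the cultures lacking glutamine.

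Inside the cell, the genes that carry or set the signal of the members passed at a share near that of all genes. Of 17 measured genes, 1 rose, 3 fell and 13 did not pass, so that 23.5% passed against 22.3% of all genes and 38.7% of those above the median level, where all 17 lie, with a median change of -0.19, and after centring 1 rose and 9 fell. Without with glutamine replicate 1 or 2, 2 genes of the list passed. Ptpn6, which encodes the phosphatase SHP-1 that binds inhibitory receptor tails, fell from 13.44 ± 0.07 to 12.72 ± 0.22 (SD, n = 3), by 0.72 (limma, adjusted p = 0.00757). Ptpn11, the gene of the related phosphatase SHP-2 and chosen after its values were seen, changed by 0.01 (adjusted p = 0.952). Grb2, an adaptor that binds the CD28 tail, fell by 0.64. Carmil2, which links CD28 to the cytoskeleton and to NF-kB, rose by 0.93 (adjusted p = 0.025) but did not pass without with glutamine replicate 1 (0.0619) or 2 (0.0796). Ap2m1, a subunit of the clathrin adaptor that takes CTLA-4 off the surface, fell by 0.29 (adjusted p = 0.043), and its call was lost whichever array was left out (0.0511 to 0.117).

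Among 4 genes of RNA-binding proteins that act on the Icos message or on related ones, 1 rose and 3 did not pass. That 1 of 4 is near the 22.3% of all genes that passed, and under the 38.7% of those above the median level, where all 4 lie. Rc3h2, which encodes Roquin-2, rose by 0.40 (limma, adjusted p = 0.0422), but not after quantile normalization (0.0637), and leaving out an array ended the call (0.0846 to 0.115) unless it was with glutamine replicate 3. Rc3h1, the gene of Roquin-1, a repressor of Icos, read 12.59, 12.61 and 12.66 with and 12.73, 12.59 and 12.90 without glutamine, overlapping groups with a change of 0.12 (adjusted p = 0.394) that was -0.04 after centring.

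Both rises and falls were found among transcription factors tied to these receptors. Of 24 measured genes, 10 rose, 6 fell and 8 did not pass (9 and 7 after quantile normalization, 10 and 8 after centring). That is 66.7% passed, against 22.3% of all genes and 38.7% of those above the median level, where all but Prdm1 lie. The median change was 0.11, against 0.06 over all genes. The largest changes were the rises of Ikzf3 (1.97), Maf (1.93), Ikzf2 (1.49) and Nfatc1 (1.30). Maf, which takes part in a programme of inhibitory receptors and IL-10 in T cells, read 12.39, 12.42 and 12.80 with glutamine and 14.39, 14.39 and 14.61 without it (limma, adjusted p = 0.000339). Tox and Tox2, known for sustaining PD-1 in chronically stimulated T cells and chosen here after their values were seen, rose by 1.18 and 1.26. The NR4A genes, which respond to T cell receptor signals and were also chosen after their values were seen, fell: Nr4a1 by 0.90, Nr4a2 by 1.13 and Nr4a3 by 0.57. In the same list, Egr2 rose by 0.86 (limma, adjusted p = 0.0176) and Irf4 by 0.51 (0.0121). Egr3 did not pass (-0.19, 0.492), and these genes were also chosen afterwards. The call of Egr2 was lost without replicate 1 or 2 of either group (0.0517 to 0.0679). That of Irf4 was lost after quantile normalization (0.455). Prdm1, the gene of BLIMP-1 and also chosen afterwards, lay between 3.98 and 4.17, under the array median on all arrays (limma, adjusted p = 0.998). In 13 of the 16 genes that passed, the call held whichever array was left out.

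Inhibitory receptors outside the members also moved in both directions. Of 11 measured genes, 4 rose, 3 fell and 4 did not pass (2 and 3 after quantile normalization, 3 and 3 after centring). That is 63.6% passed, against 22.3% of all genes and 38.7% of those above the median level, where all but Cd244a, Klrg1 and Cd300a lie. The median change was 0.26, against 0.06 over all genes. Lilrb4a, an inhibitory receptor known mainly from myeloid cells and also found on activated T cells, read 14.30, 14.94 and 14.50 with glutamine and 10.99, 11.17 and 10.49 without it. Its fall of 3.70 (limma, adjusted p = 0.00024) was larger than that of any member, and number 18 of all genes in order of size. Pdpn, the gene of podoplanin, fell from 8.08 ± 0.17 to 6.73 ± 0.03 (SD, n = 3), by 1.35. Lair1, a collagen receptor, rose from 5.03 ± 0.07 to 6.51 ± 0.15, by 1.47, and Vsir, the gene of VISTA, rose from 8.0 ± 0.13 to 9.27 ± 0.04, by 1.27. The myeloid markers that moved, given above, were Lyz2 and Cd68, and their part in the changes of Lilrb4a and Lair1 was not tested.

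**Figure D4:**
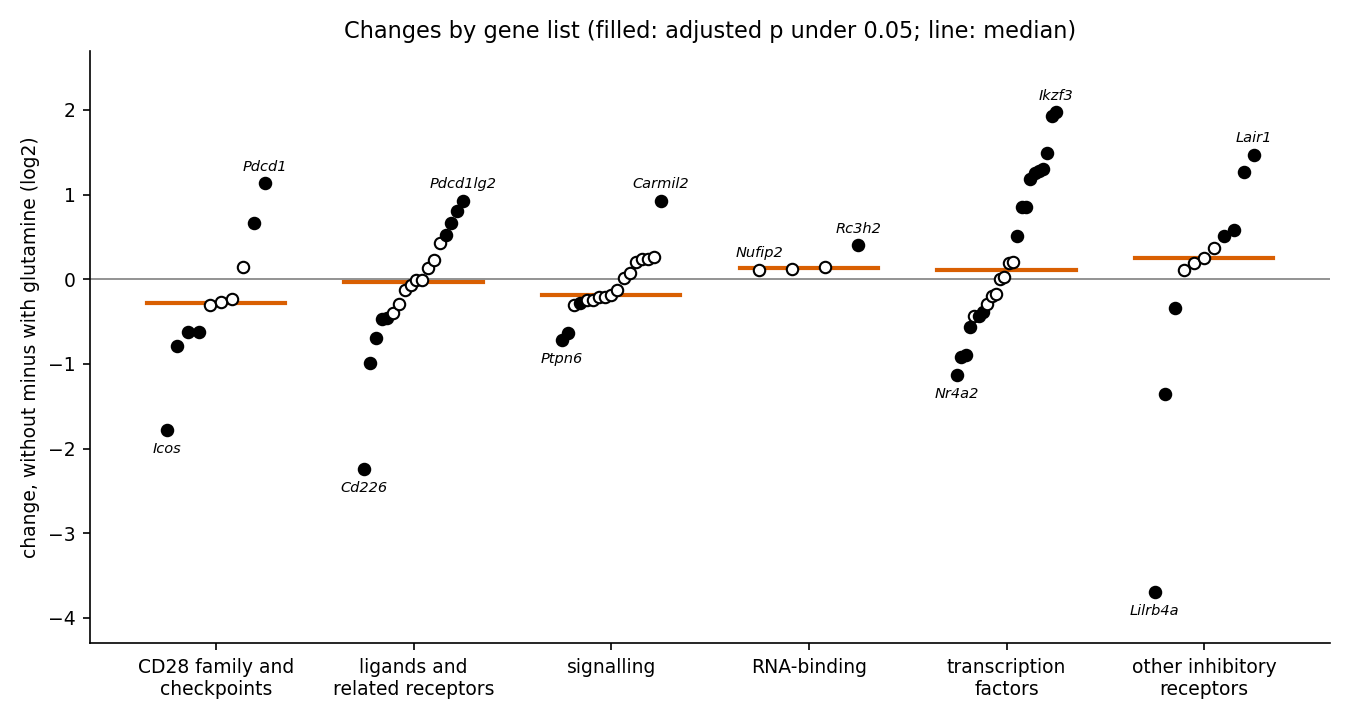
Changes (y axis, log2, without minus with glutamine) of the 10 members and of the 5 gene lists around them; each point is a gene, filled where it passed at adjusted p under 0.05, lines mark list medians, and the lowest and highest gene of each list are named. Every list but that of the RNA-binding proteins holds filled points on both sides of 0, from Lilrb4a at -3.70 to Ikzf3 at 1.97.

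Several members lie beside each other on their chromosomes, and these neighbours did not all move the same way. Cd28, Ctla4 and Icos stand in that order on chromosome 1 with no other named protein coding gene that was tested between them (RefSeq, GRCm38.p6), and their changes were 0.14, -0.62 and -1.79. The genes next to them on either side, Raph1 (-0.23) and Pard3b (0.11), named with their values in view, did not pass, and Abi2, 2 genes from Cd28, fell by 0.72. Btla and Cd200 are adjacent on chromosome 16 and changed by -0.30 and -0.62. Lag3 lies beside Cd4 on chromosome 6. Lag3 rose while Cd4 changed by -0.14 (limma, adjusted p = 0.275), and Ptms on the other side of Lag3, also named with its values in view, changed by -0.05. After quantile normalization Cd4 was lower (-0.52, limma, adjusted p = 0.00637).

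Counting the 2 nearest such genes on each side of every member, 28 genes outside the members were compared. None rose (0), 7 fell and 21 did not pass, so that 25% passed against 22.3% of all genes. Apart from Abi2, those that fell were St8sia4 (-1.40), near Pdcd1 and opposite to it in direction, Gap43 (-0.77) beside Tigit, Slc35a5 (-0.62) near Btla, Mlf2 (-0.53) near Lag3, and Polr3c (-0.53) and Rnf115 (-0.51), both near Cd160. The call of Mlf2 was lost without with glutamine replicate 1 or 3 (adjusted p = 0.061 and 0.0533) or replicate 1 or 2 of the cultures lacking glutamine (0.0656 and 0.0726), and that of Gap43 without with glutamine replicate 2 (0.0599) or replicate 3 of the cultures lacking glutamine (0.0577).

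**Figure D5:**
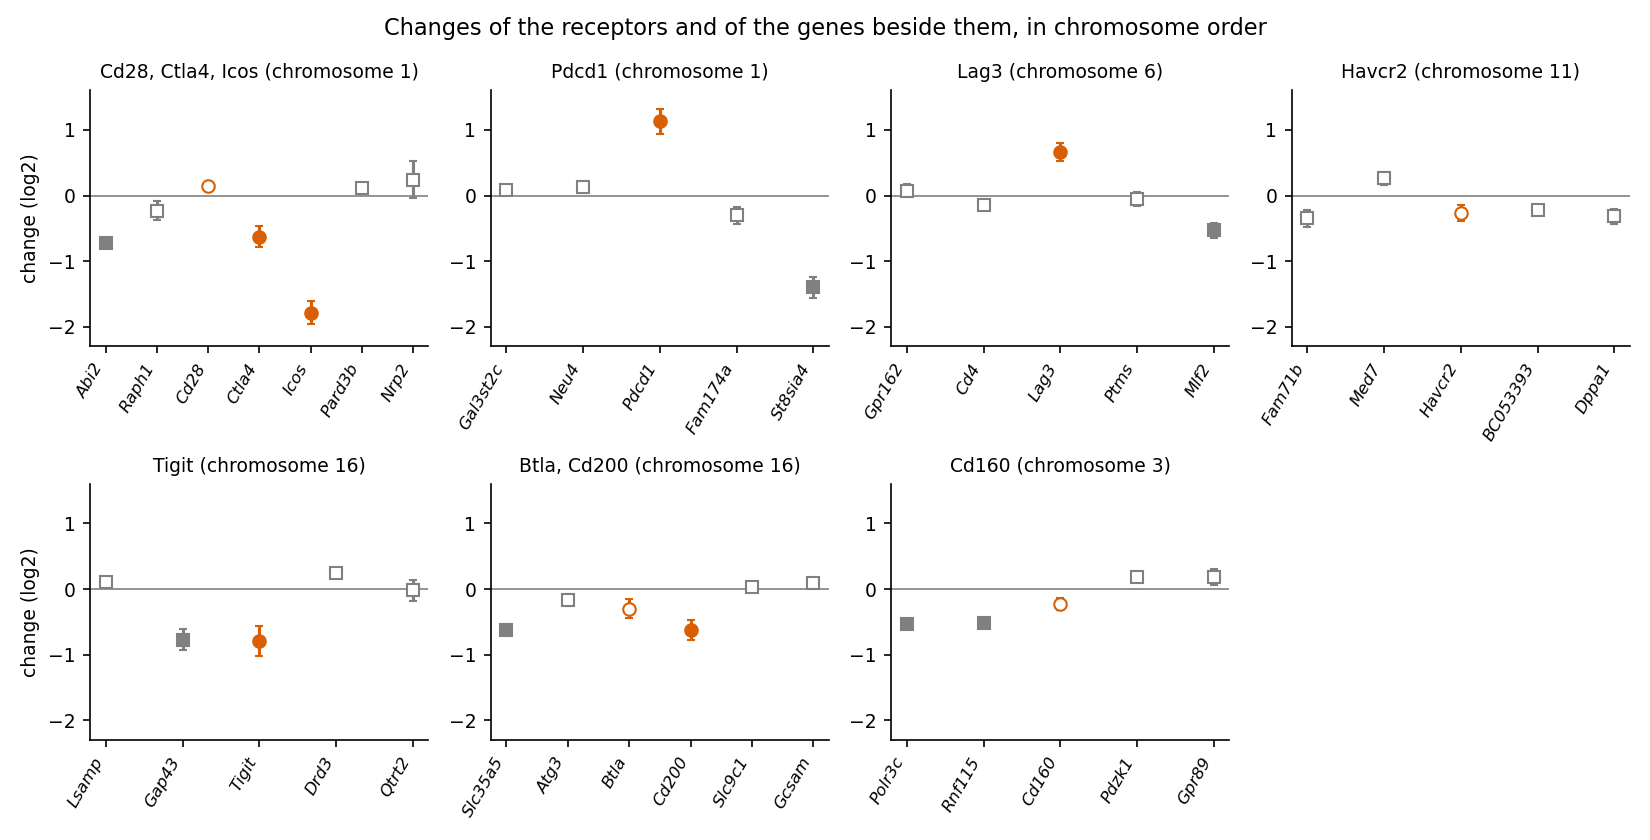
Changes (y axis, log2, without minus with glutamine; bars are standard errors) of the members (circles) and of the 2 nearest named protein coding genes on each side (squares), in chromosome order along the x axis and not to scale; filled symbols passed at adjusted p under 0.05. Cd28, Ctla4 and Icos descend from 0.14 to -1.79, and Pdcd1 and Lag3 rise with no neighbour above 0.13.

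To place the members with the strongest changes, the genes whose log2 values, centred per gene, followed theirs most closely over the 6 arrays were listed among 18332 named protein coding genes. For Pdcd1 they were Ddx28, an RNA helicase gene (root mean square difference 0.12), Tnf, the gene of the cytokine TNF (0.13), and St8sia6, a sialyltransferase gene (0.14). Tnf rose from 13.91 ± 0.21 to 15.05 ± 0.14 (SD, n = 3), by 1.15. For Icos they were Slc35d3 (0.11), Tmtc2 (0.13) and Vim, which encodes the intermediate filament vimentin (0.13). Vim fell from 17.26 ± 0.22 to 15.64 ± 0.17 (SD, n = 3), by 1.61. These likenesses rest on 6 arrays that differ mainly between the groups, so they name genes with a change of similar size.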

How the data were processed

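RNA of 6 TH17 cultures, 3 per group, was read on Affymetrix arrays. Per the submitters' processing notes, the authors made the deposited log2 values with RMA, which corrects background, normalizes between arrays and combines each row's probes, in Transcriptome Analysis Console 4.0. The sources used here give neither its options nor the genome build. The 6 deposited columns were used as they stand. A single gene was named for 31258 of 65956 rows and several for 1492, while 33206 rows had no name here. Symbols were updated through RefSeq (GRCm38.p6), and the row with the highest mean was taken for the 441 genes with several rows.

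All 30702 genes were fitted with limma 3.58.1 in R 4.3.3 (lmFit and eBayes, two-sided, no covariate, no filter on dim genes), after the code was tested on simulated data. The spread behind the p-values is that between these arrays and may be technical. The exact permutation tests used scipy 1.17.1, and figures matplotlib 3.10.9. The members and lists were chosen with earlier results of these data known. Named from each list were up to 4 genes past the threshold with the largest changes, or the 2 brightest where fewer than 2 passed; neighbours were named where they passed and changed by at least 0.5, marker genes that passed were named with their values in view, and any other choice is marked as such. Of 120 different genes in the lists, 106 were measured in a row of their own; the others are not analysed here. Alternatives were other scalings, filters, the mean over a gene's rows, moderation, array weights, thresholds, a block for the replicate number, and the omission of each array in turn.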

Additional observations from a re-analysis of the deposited data

How the results depend on the processing

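Of 150 changes of single members under alternatives, 119 kept their direction and their side of the threshold. These include the mean over a gene's rows, which left the change of every member as it was. Alternatives in the test or the threshold alone also cannot turn a direction. The count of members that passed was 1 with the unmoderated statistic (0 higher, 1 lower) and 2 at an adjusted p under 0.01 (1 higher, 1 lower). It ranged from 2 to 5 with an array left out (1 to 2 higher, 1 to 3 lower). With the unmoderated statistic the adjusted p was 0.12 for Ctla4 (change -0.62), 0.0572 for Pdcd1 (1.13), 0.0773 for Lag3 (0.66), 0.147 for Tigit (-0.79) and 0.109 for Cd200 (-0.62). At 0.01, Ctla4 (0.037), Lag3 (0.0178), Tigit (0.0481) and Cd200 (0.0318) did not pass. Quantile normalization and centring added Havcr2 (-0.45 and -0.42) and Cd160 (-0.42 and -0.39), and centring reversed Cd28 (-0.014). Whether the replicate numbers pair the cultures is not known. Deviations of same-numbered arrays correlated at 0.07, -0.23 and 0.28, and those of other arrays at -0.33 to 0.30. With 3 arrays per group this cannot settle it. With the replicate number as a block 3 members passed (1 lower), and Ctla4 (-0.62, adjusted p = 0.0586), Tigit (-0.79, 0.0630) and Cd200 (-0.62, 0.0677) did not. Over all genes 6292 passed with this block (2548 higher, 3744 lower), against 6843 without it.

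With an array left out, the changes ranged from -0.76 to -0.44 for Ctla4, from 0.54 to 0.74 for Lag3, from -0.95 to -0.51 for Tigit and from -0.76 to -0.49 for Cd200, and Btla minus Cd160 from -0.255 to 0.084, with 0.058 without with glutamine replicate 3. Over all genes 3832 passed with the unmoderated statistic (1414 higher, 2418 lower), 2943 at 0.01 (800 and 2143) and 10951 when all rows were tested. The higher count was 1453 after quantile normalization and 1215 after centring, where 6126 were lower. With an array left out, 4060 to 6501 genes passed (1394 to 2489 higher). Of the ligands 5 passed with the unmoderated statistic, 4 at 0.01 and 5 to 7 with an array left out. Of the signalling genes these counts were 2, 2 and 2 to 4, and 10 after centring. Of the RNA-binding proteins 0 passed after quantile normalization, centring, trend and robust moderation, with the unmoderated statistic and at 0.01, and 0 to 1 with an array left out. Of the other inhibitory receptors 4 passed at 0.01. No member had a second row, so neither the choice of row nor the mean over rows was a true alternative for the members. The arrays give no depth, and signal over background was not analysed here.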

Other observations

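With glutamine replicate 2 held the highest value of its group in 6 of the 10 members, among them Icos (15.55), Ctla4 (14.53) and Tigit (8.85), and the lowest in 3, among them Pdcd1 (12.62). Among the cultures without glutamine, replicate 1 was highest in 6 members and replicate 3 lowest in 6, with Cd28, Pdcd1, Btla and Cd200 in both sets. These counts were taken after the values were seen and were not tested.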
